A study of Mus musculus with 80 samples.

Results

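The brain endothelial genes Cldn5, Pecam1, Flt1, Sox17, Ly6c1, Cdh5, Slco1a4, Abcb1a, Itm2a and Tek were followed through every step of a microglial isolation, from intact tissue to sorted cells. They were chosen by name as genes typical of blood vessel endothelium in the brain. All 10 were listed in the table of the sort comparison, which held 15919 genes, and in the table of the cell preparation comparison, which held 16000 genes. In mouse brain, endothelial cells line the capillaries and form the blood-brain barrier, in which tight junctions seal the gaps between cells while efflux pumps and carriers control what crosses the cell. Wnt signals from the surrounding tissue maintain this barrier state, and the VEGF and angiopoietin pathways govern growth and stability of the vessels. Endothelial RNA is therefore present in whole brain and in unsorted suspensions, and is unwanted in a microglial preparation.

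All libraries came from Cx3cr1-NuTRAP mice of both sexes, cre/ERT2+/wt with the NuTRAP allele, in which tamoxifen (100 mg/kg, given from about 3 months of age) switches on eGFP-tagged ribosomes in cells that express Cx3cr1. Cx3cr1 drives the Cre in microglia and also in border macrophages of the brain, so the tag marks those cells too, and brains were taken long enough after tamoxifen for tagged blood cells to be replaced. RNA taken before the ribosome pull-down is called Input, and RNA recovered with the tagged ribosomes is called TRAP. The sort comparison held 48 libraries, an Input and a TRAP library each from Tissue (4 mice), from an enzymatic and mechanical suspension called Cell (4 mice), and from cells sorted out of such a suspension by CD11b magnetic beads (autoMACS, 4 mice), by beads and then a cartridge cytometer (autoMACS to Tyto, 3 mice), by that cytometer alone (Tyto, 5 mice) and by a conventional cytometer (FACSAria, 4 mice). Both cytometers gated CD11b+CD45+eGFP+ cells. The cell preparation comparison held 32 libraries, an Input and a TRAP library from 4 mice each of Tissue, Cell no inhibitors, Cell with inhibitors (transcription and translation blocked by actinomycin D, triptolide and anisomycin) and Dounce (mechanical dissociation at 4 °C). The suspensions with and without inhibitors came from the same 4 mice. Dounce cells were strained and recovered from a Percoll gradient that takes away myelin and undissociated tissue, so Dounce-Input is a cell pellet, whereas Tissue was homogenised directly in lysis buffer. The study describes poorer RNA integrity in Dounce-Input than in the other Input groups, and coverage more skewed to the 3′ end in Tissue and Dounce than in the suspensions, neither of which was analysed here. Its Tissue mice bear the same numbers as those of both unsorted groups in the sort comparison, so the comparisons are not independent there. Library totals ran from 7129464 to 20168116 counts in the sort comparison and from 2471448 to 14650287 in the cell preparation comparison, with the Dounce-TRAP libraries the shallowest (median 3403594).

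The tissue and cell labels were checked on marker lists. The summed level of 12 microglial markers had a median of 382.5 CPM (counts-per-million, on normalized library sizes) in Tissue-Input and 7145 CPM in Cell-Input, and lay between 46840 and 51420 CPM in the 4 sorted Input groups. The sum of 8 neuronal markers fell in the opposite order, from 5620 CPM in Tissue-Input to 672.1 CPM in Cell-Input and 14.1 CPM in FACSAria-Input.

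The 10 genes lie on 9 chromosomes of the mm10 build. Cldn5 (chr16:18776847-18778262, plus strand) encodes the main claudin of the barrier's tight junctions. Cdh5 (chr8:104101625-104144502, plus strand) encodes VE-cadherin of the adherens junctions, and Pecam1 (chr11:106654218-106715281, minus strand) encodes the junctional protein CD31, which platelets and myeloid cells also carry. Flt1 (chr5:147562196-147725988, minus strand) and Tek (chr4:94739300-94874939, plus strand) encode receptors for VEGF and for the angiopoietins. Abcb1a (chr5:8660092-8748570, plus strand) encodes the efflux pump P-glycoprotein and Slco1a4 (chr6:141805440-141856171, minus strand) an organic anion carrier. Sox17 (chr1:4490928-4496413, minus strand) encodes a transcription factor of arterial endothelium, Ly6c1 (chr15:75044018-75048837, minus strand) a surface protein anchored in the membrane by lipid, and Itm2a (chrX:107397195-107403360, minus strand) a membrane protein.

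The promoters of Flt1 and Abcb1a are shown because their genes had the largest folds between Tissue-Input and Cell-Input, and that of Abcb1b, the neighbour and near copy of Abcb1a, because its level moved differently. Each runs 5′ to 3′ on the gene's own strand from 250 bases before to 50 after the RefSeq start (GRCm38.p6). Capitals mark AGGAAG or its reverse complement CTTCCT, a word that holds the GGAA core bound by ETS-family factors, which endothelial and myeloid cells both use.
Flt1, chr5:147725962-147726261, minus strand: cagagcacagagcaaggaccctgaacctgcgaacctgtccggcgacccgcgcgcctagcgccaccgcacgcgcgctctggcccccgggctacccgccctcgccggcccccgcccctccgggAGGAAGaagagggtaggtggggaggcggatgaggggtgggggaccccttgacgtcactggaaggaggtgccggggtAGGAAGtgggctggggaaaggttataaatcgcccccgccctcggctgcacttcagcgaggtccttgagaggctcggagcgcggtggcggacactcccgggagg
Abcb1a, chr5:8566841-8567140, plus strand: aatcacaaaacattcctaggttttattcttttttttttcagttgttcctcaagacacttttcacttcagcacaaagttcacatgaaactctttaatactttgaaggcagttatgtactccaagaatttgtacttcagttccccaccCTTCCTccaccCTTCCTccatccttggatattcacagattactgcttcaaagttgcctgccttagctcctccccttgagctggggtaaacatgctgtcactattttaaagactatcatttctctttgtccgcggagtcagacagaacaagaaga
Abcb1b, chr5:8797897-8798196, plus strand: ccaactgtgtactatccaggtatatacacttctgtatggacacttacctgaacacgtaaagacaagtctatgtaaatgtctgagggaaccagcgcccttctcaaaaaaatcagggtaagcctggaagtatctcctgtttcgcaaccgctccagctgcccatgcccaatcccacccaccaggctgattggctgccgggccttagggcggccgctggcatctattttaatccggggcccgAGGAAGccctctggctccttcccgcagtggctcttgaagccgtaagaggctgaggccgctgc
The Abcb1a window lies upstream of the interval the authors' table gives for this gene. The word starts 129 and 53 bases before the start of Flt1, 104 and 93 before that of Abcb1a and 12 before that of Abcb1b. The 7 members that had an entry had 8 windows, since Ly6c1 has a pair of starts, and the word occurred in 5 of the 8 (1 each of Abcb1a, Flt1, Slco1a4, Ly6c1 and Itm2a, not Cldn5 or Tek) and in 35.4% of all 32851 windows of 300 bases. A match describes the letters in the window and no more.

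In intact tissue the genes were low and similar between mice. Cldn5 stood at 20.3, 12.7, 18.6 and 12.3 CPM in the 4 mice of Tissue-Input (sort table), Flt1 at 8.64, 7.74, 7.28 and 8.44, and Abcb1a at 7.17, 4.38, 4.50 and 5.57. Per kilobase of exon, the group means ran from 0.212 CPM per kb for Sox17 to 11.3 for Cldn5, with Ly6c1 (5.82) and Itm2a (5.12) next below Cldn5. Summed over the 10 genes, the libraries held between 59.88 and 77.54 CPM (median 67.96).

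**Figure D1:**
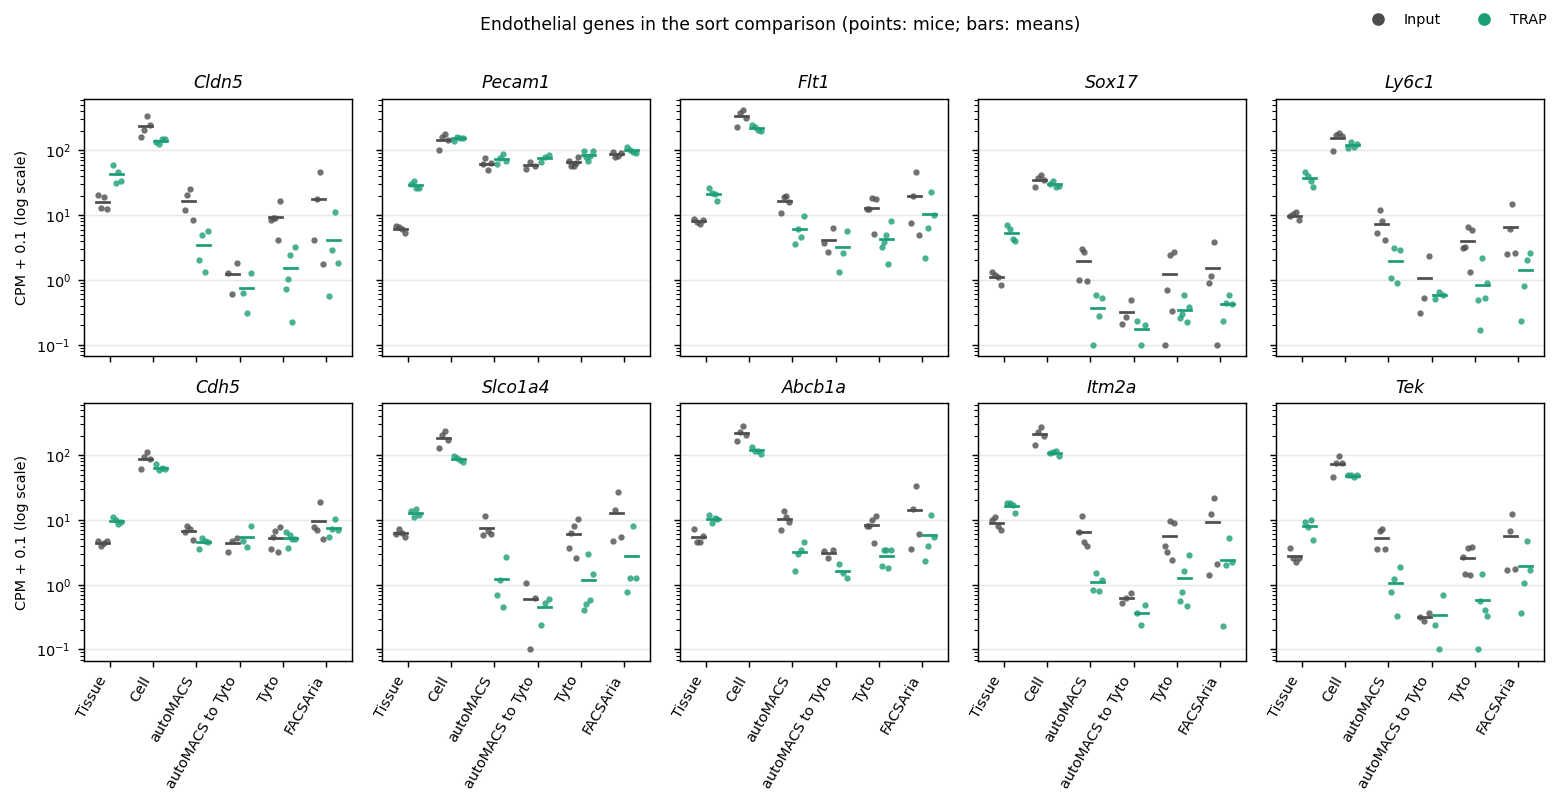
Level of each gene in the sort comparison, as CPM plus 0.1 on a log axis, for the 6 preparations on the horizontal axis; grey points are Input libraries, green points TRAP libraries, one per mouse, and bars are group means. Within each fraction the Cell libraries stand above all others for every gene, and Pecam1 in the sorted Input libraries lies between Tissue-Input and Cell-Input.

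All 10 genes made up a larger share of the library in Cell-Input than in Tissue-Input. CPM gives such a share, not an amount of RNA. Flt1 reached 231.8, 372.4, 413.4 and 316.9 CPM in the 4 Cell-Input libraries, 41.5-fold above Tissue-Input (log2 fold change 5.38, SE 0.50, adjusted p = 1.75e-09). Abcb1a reached 163.7, 224.3, 278.6 and 203.0 CPM, a 40.2-fold difference (log2 5.33, SE 0.46, adjusted p = 4.75e-10). Cldn5 had the smallest fold, at 159.3, 204.4, 333.8 and 249.0 CPM (14.8-fold, log2 3.89, SE 0.58, adjusted p = 3.25e-06). For each gene the lowest Cell-Input library lay above the highest Tissue-Input library. A gene was called where the false discovery rate of edgeR's quasi-likelihood test over all genes tested was under 0.1 and the fold above 2, and by that rule all 10 were higher against 26.7% of all genes tested. Groups that did not overlap, with Cell-Input higher, made up 39.1% of all genes. The median of the 10 log2 fold changes was 4.68, beside 0.07 over all genes. The summed level rose to between 1164 and 2144 CPM. In bulk RNA, more or fewer endothelial cells and more or less RNA per endothelial cell cannot be told apart.

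RNA of other cells moved in the same comparison. The summed level of 14 pericyte and smooth muscle markers had a median of 134.6 CPM in Tissue-Input and 509.5 CPM in Cell-Input, with Rgs5, a pericyte gene, 3.98 higher on the log2 scale (SE 0.43). Microglial markers were called higher for 12 of 12 genes, oligodendrocyte and ependymal markers for 8 of 8 each, against 26.7% of all genes. Neuronal markers were lower for 8 of 8, against 19% of all genes. Border macrophage markers were higher for 8 of 8 (median sum 11.34 CPM in Tissue-Input and 156.2 CPM in Cell-Input), platelet and erythroid markers for 5 of 6 (128.7 and 2400 CPM, most of it Hba-a1), monocyte and neutrophil markers for 6 of 6 and astrocyte markers for 4 of 8 (3349 and 8158 CPM). Macrophages and blood cells carry Pecam1, and their part in its rise was not tested. The part of the neuronal loss in the higher share of the other RNA was not tested.

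Against 26.7% of all genes, most genes of the other endothelial lists were higher too. Some of them, among them Klf2, Fli1 and F11r, are also known from myeloid cells and were higher still in FACSAria-Input, and the part of myeloid RNA in their rise was not tested. Of 18 endothelial transcription factors, 18 were called higher, with Klf2, which responds to flow, at log2 4.90 (SE 0.24) and the ETS factor Fli1 at 4.88 (SE 0.18). Of 18 adhesion and surface genes tested, 18 were higher, among them Cd93 (5.42, SE 0.35), the guidance receptor Robo4 (4.67, SE 0.46) and the sialomucin Emcn (4.65, SE 0.56). Transporters of the barrier were higher for 21 of 22 genes, with the thiamine carrier Slc19a3 at 4.72 (SE 0.60) next below Abcb1a and Slco1a4. Genes of Wnt signalling at the barrier were higher for 15 of 16 tested, including the receptor Fzd4 (4.25, SE 0.33) and the factors Foxq1 (4.19, SE 0.58) and Foxf2 (4.04, SE 0.60). Genes of the VEGF, angiopoietin and Tie pathways were higher for 11 of 14, with the phosphatase Ptprb at 4.93 (SE 0.52). Tight junction genes were higher for 10 of 13, among them Ocln (3.90, SE 0.31) and F11r (3.74, SE 0.14).

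Arterial, venous and capillary genes were all represented among the higher calls, which made up 26.7% of all genes. Arterial genes were higher for 9 of 11, with the kinase Bmx at 4.58 (SE 0.76) and Sema3g at 4.29 (SE 0.66). Venous genes were higher for 7 of 8 tested, with von Willebrand factor, Vwf, at 4.33 (SE 0.46). Capillary genes were higher for 4 of 7, with smaller differences such as 2.52 (SE 0.30) for the lipid carrier Mfsd2a. Of the 3 tested genes of fenestrated endothelium, the leaky type found outside the barrier, 0 were higher and 2 were lower, where 19% of all genes were lower. Plvap, which builds the diaphragms of fenestrae, stood between 10.5 and 12.4 CPM in Tissue-Input and between 2.03 and 3.18 CPM in Cell-Input (log2 -2.19, SE 0.22, adjusted p = 7.10e-09). Rgs4, listed with it, is also known from neurons and was lower by a log2 value of -1.86 (SE 0.25). The study's list of 235 endothelial markers, drawn from published data on other samples, had 219 higher, with a median of 3.18.

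The TRAP libraries showed the same direction with smaller differences. Flt1 stood at 25.9, 22.1, 20.8 and 16.2 CPM in Tissue-TRAP and at 250.5, 228.8, 205.7 and 196.4 CPM in Cell-TRAP (10.4-fold, log2 3.38, SE 0.41, adjusted p = 4.79e-08). Cldn5 and Ly6c1 had the smallest differences (log2 1.72, SE 0.42 and 1.72, SE 0.30). All 10 genes were called higher and the groups did not overlap for any of them, against 24.8% of all genes called higher and 38% higher without overlap. The called share was 18.7% with DESeq2 size factors, which lowered the median of all genes by 0.33 on the log2 scale. The lower calls made up 29.5% and 35.1% of all genes by those scalings.

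Whether the pull-down removed endothelial RNA depended on what went into it. In intact tissue the genes were higher in TRAP than in Input. Pecam1 stood at 6.69, 6.39, 5.93 and 5.27 CPM in Tissue-Input and at 30.6, 34.1, 26.1 and 26.5 CPM in Tissue-TRAP, a 4.82-fold difference (log2 2.27, SE 0.15, adjusted p = 1.69e-16). Cdh5 stood at 4.59, 3.92, 4.27 and 4.57 CPM in Input and at 10.9, 9.71, 8.56 and 9.06 in TRAP (log2 1.14, SE 0.27, adjusted p = 0.000797). Every TRAP library lay above every Input library for each of the 10 genes, as for 23.6% of all genes. 8 of the 10 were called higher against 9.23% of all genes, with Abcb1a at a log2 difference of 0.95 (SE 0.38) and Itm2a at 0.87 (SE 0.44) under the 2-fold limit. The largest adjusted p of the 10 by edgeR was 0.153, so the false discovery rate limit was not met by every gene. Limma on the authors' log2 values called 5, and leaving out single mice gave 6 to 7 calls by edgeR. The Tissue libraries of the cell preparation table gave 8 calls against 8.21% of all genes and 5 by limma, but they bear the same mouse numbers and may be the same libraries processed again, so they are no independent repeat. The same contrast raised 12 of 12 microglial and 8 of 8 border macrophage markers (medians of 4.56 and 4.58 on the log2 scale), while 0 of 14 pericyte markers were higher and 1 was lower, against 1.87% of all genes lower. Of 8 astrocyte markers 1 was higher (median log2 -0.18), although their sum had a median of 3349 CPM in Tissue-Input and 4657 CPM in Tissue-TRAP without overlap, with the glutamate carrier gene Slc1a2 at means of 1224 and 2641 CPM. Among other endothelial genes it raised 12 of 18 transcription factors and 13 of 18 adhesion genes but 4 of 22 transporters and 0 of 7 capillary genes.

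**Figure D2:**
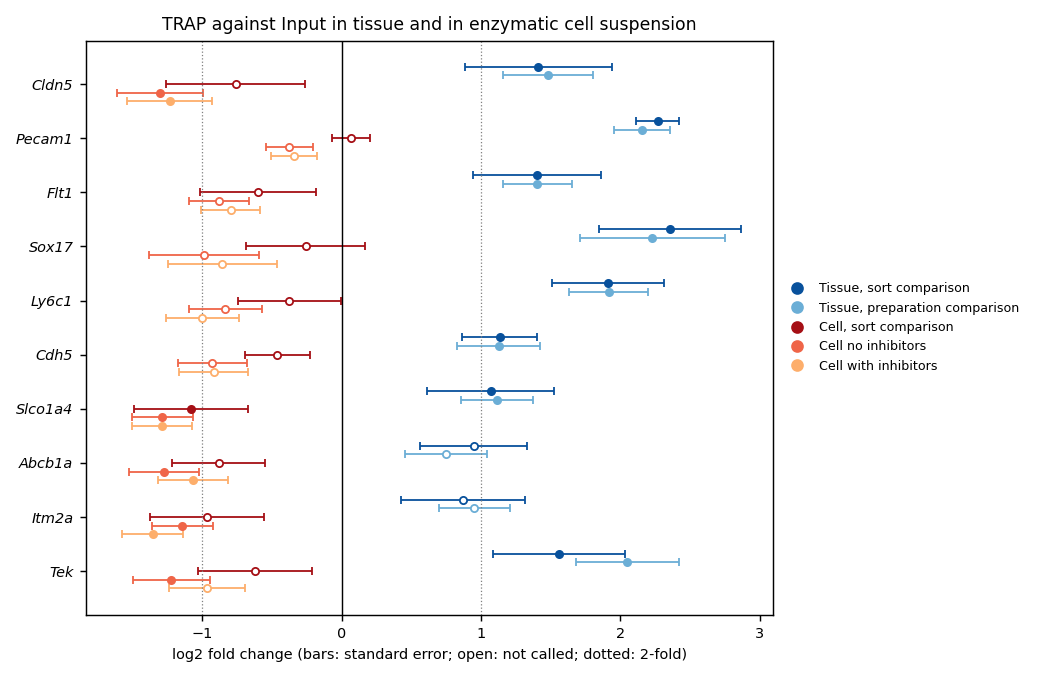
Log2 difference of TRAP over Input for each gene, with its standard error. Series are Tissue in both comparisons, Cell in the sort comparison, Cell no inhibitors and Cell with inhibitors. Filled points were called and open points were not. The Tissue points all lie to the right of 0, the Cell points at or left of it apart from Pecam1 at 0.07 in the sort comparison.

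In the suspension that excess was gone. Cell-TRAP held between 1048 and 1123 CPM in the summed 10 genes and Cell-Input between 1164 and 2144. In the same libraries the median microglial sum was 7145 CPM in Input and 46010 in TRAP, and the border macrophage sum 156.2 and 1061. The sums of pericyte (509.5 and 159), astrocyte (8158 and 1780), oligodendrocyte (11470 and 524.5) and neuronal markers (672.1 and 144.9) were lower in TRAP. Slco1a4 was the only member called lower in TRAP (log2 -1.08, SE 0.41, adjusted p = 0.0166), against 30.9% of all genes called lower. Pecam1 differed by 0.07 (approximate 95% interval -0.20 to 0.33). This count of 1 was 0 without mouse 948 and 3 without mouse 946, and rose to 4 when the test alone was required and to 6 with DESeq2 size factors, which moved the median of all genes by -0.41 and the share of lower calls from 30.9% to 37.5%. The change between preparations was tested directly as an interaction, and the TRAP-over-Input difference was lower in Cell than in Tissue for 10 of 10 genes (log2 -1.60 for Cdh5 to -2.61 for Sox17), against 29.5% of all genes, or 36.5% with DESeq2 size factors.

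The sorted libraries held far less of these genes than the suspension, with Pecam1 the least changed. In the autoMACS-Input libraries Flt1 stood at 10.7, 18.9, 19.7 and 16.02 CPM, each above the highest Tissue-Input library (8.64), and it was lower than Cell-Input by a log2 value of -4.36 (SE 0.48, adjusted p = 1.95e-08). In Tyto-Input it stood between 5.01 and 18.1 CPM (log2 -4.67, SE 0.44) and in FACSAria-Input at 7.53, 19.5, 46.9 and 4.92 CPM (log2 -4.07, SE 0.47). No library of these sorts reached the Cell-Input range. All 10 genes were called lower than Cell-Input after autoMACS (against 30.9% of all genes), autoMACS to Tyto (31.9%) and Tyto (32.4%), and 9 of 10 after FACSAria (31.7%). With DESeq2 size factors, which moved the median of all genes by -0.47 to -0.50, lower calls made up between 36.2% and 37.4% of all genes and higher calls between 12.7% and 14.1%, in place of 21.8% to 24.5%. Median marker sums of other cells were also lower in the sorted Input groups than in Cell-Input. Astrocyte sums went from 8158 CPM to between 206.5 and 327.2, and oligodendrocyte sums from 11470 to between 209.4 and 410.9. Ependymal sums went from 3270 to between 27.97 and 261.9, and pericyte sums from 509.5 to between 22.2 and 45.4. Microglial and border macrophage sums rose.

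Most genes were lower still in the TRAP libraries of the sorts. Averaged over the 4 sorts with equal weight, TRAP was below Input for 8 of 10 genes, against 18.8% of all genes, from -1.11 (SE 0.28) for Flt1 to -2.12 (SE 0.56) for Sox17. In autoMACS to Tyto taken alone, Tek had a mean of 0.215 CPM in Input and 0.242 CPM in TRAP. Against Cell-TRAP, all 10 genes were lower after autoMACS (22.8% of all genes lower) and 9 after autoMACS to Tyto (21.4%), Tyto (23.1%) and FACSAria (21.8%). The summed level of the 9 genes other than Pecam1 had a median of 935.5 CPM in Cell-TRAP, 21.0 in autoMACS-TRAP, 9.50 in autoMACS to Tyto-TRAP, 13.4 in Tyto-TRAP and 28.3 in FACSAria-TRAP. Sox17 had 3 counts in the 3 autoMACS to Tyto-TRAP libraries together, 388.4-fold below Cell-TRAP with a counting interval of 132.9 to 1883.

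Pecam1 behaved unlike the rest. It stood at 102.2, 157.9, 177.6 and 143.5 CPM in Cell-Input, at 60.6, 75.7, 49.6 and 64.3 in autoMACS-Input and at 95.2, 79.3, 81.3 and 91.2 in FACSAria-Input. Every sorted Input library thus lay below every Cell-Input library and above every Tissue-Input library. The difference from Cell-Input was -1.21 (SE 0.15) after autoMACS, -1.31 (SE 0.16) after autoMACS to Tyto, -1.15 (SE 0.14) after Tyto and -0.75 (SE 0.15) after FACSAria on the log2 scale. The FACSAria value passed the test (adjusted p = 7.23e-05) but not the 2-fold limit, and reached -1.23 with DESeq2 size factors. In FACSAria-TRAP Pecam1 stood at 113.5, 101.0, 94.4 and 89.7 CPM (log2 -0.61, SE 0.12 against Cell-TRAP). It made up a median of 8.74% of the summed 10 genes in Cell-Input, 59.3% in FACSAria-Input and 87.5% in autoMACS to Tyto-TRAP. The median border macrophage sum went from 156.2 CPM in Cell-Input to between 641.2 and 995.6 in the sorted Input groups. The microglial sum went from 7145 CPM to between 46840 and 51420. The part of these cells in the Pecam1 level was not tested.

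Cdh5 lay between Pecam1 and the rest. It stood at 61.3, 93.3, 110.1 and 86.7 CPM in Cell-Input and at 7.73, 6.85, 18.8 and 5.05 in FACSAria-Input, 9.08-fold lower. Its level in the sorted groups did not separate by fraction, with an average TRAP-over-Input difference of -0.18 (SE 0.15, adjusted p = 0.306), where Pecam1 had 0.30 (SE 0.07) and the other 8 genes were lower in TRAP.

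The 4 sorts did not leave the same residue. After autoMACS, Cldn5 stood at 11.9, 20.2, 25.4 and 8.44 CPM in mice 66, 67, 72 and 73. After autoMACS to Tyto it stood at 1.17, 0.513 and 1.70 in mice 66, 67 and 73 (15.4-fold lower, log2 -3.94, SE 0.91, adjusted p = 0.0298). Mouse 72 had no library of this double sort. Tek stood at 3.40, 6.76, 7.11 and 3.43 CPM and at 0.212, 0.171 and 0.261 (log2 -4.57, SE 0.86, adjusted p = 0.0119). Slco1a4 stood at 5.67, 11.3, 6.67 and 5.87 CPM and at 0.954, 0 and 0.522. For 8 of the genes the ranges did not overlap, against 8.26% of all genes lower without overlap. 7 genes were called lower, against 2.10% of all genes. Pecam1 (log2 -0.10), Cdh5 (-0.62) and Sox17 (-3.09, SE 1.12, adjusted p = 0.12) were not. These calls come from a fit of all Input groups. With only these 7 libraries fitted 0 members and 0 of all genes were called, and the cause was not tested. Leaving out mouse 67, 66 or 73 from the double sort gave 2, 3 and 3 calls. In the TRAP libraries Cldn5 (log2 -2.51, SE 0.95) and Ly6c1 (-1.95, SE 0.74) were called, 2 of 10 against 0.655% of all genes. The count was 6 with the mouse as a block, and 0 without any one of the 3 double-sorted mice or without autoMACS mouse 67 or 73.

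Across the 4 sorts together, 8 of 10 genes differed in Input, against 7.83% of all genes, and 6 of 10 in TRAP, against 4.16%. The largest gap between group means was 27.7-fold for Slco1a4 in Input (adjusted p = 0.00330) and 8.94-fold for Itm2a in TRAP (adjusted p = 0.0377). Without FACSAria mouse 991 these gaps were 17.4-fold (adjusted p = 0.00273) and 5.24-fold (adjusted p = 0.144). Pecam1 varied by 1.48-fold in Input and 1.34-fold in TRAP. Fitted on the sorted groups of each fraction alone, 5 of 10 were called in Input and 3 in TRAP. Limma on the authors' log2 values called fewer still in TRAP. In Input, leaving out autoMACS to Tyto mouse 67 gave 4 and mouse 66 gave 5. In TRAP, leaving out FACSAria mouse 991 or autoMACS to Tyto mouse 67 gave 2, autoMACS to Tyto mouse 66 gave 3 and autoMACS mouse 67 gave 4.

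**Figure D3:**
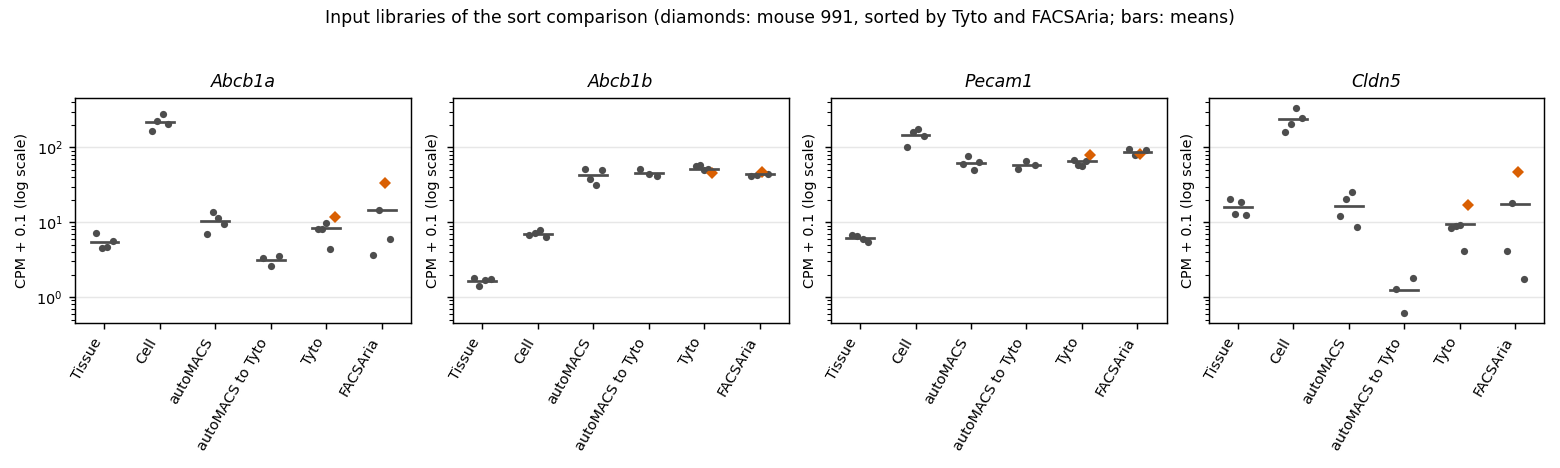
Levels of Abcb1a, its near copy Abcb1b, Pecam1 and Cldn5 in the Input libraries of the sort comparison, as CPM plus 0.1 on a log axis shared by the panels; points are mice, bars are means, and orange diamonds are mouse 991, which was sorted on both the Tyto and the FACSAria. Abcb1a and Cldn5 fall after sorting while Abcb1b rises, and mouse 991 is highest for Abcb1a and Cldn5 in both cytometer groups.

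A single mouse carried much of the residue in the FACSAria libraries. Mouse 991 held the highest value of its FACSAria-Input group for 9 of the 9 genes other than Pecam1, and of the FACSAria-TRAP group for 8 of 9. Its Cldn5 level was 46.5 CPM beside 4.02, 17.8 and 1.64 in the other mice, and its Abcb1a level 33.2 CPM beside 3.51, 14.5 and 5.93. On the Tyto the same mouse was highest for 6 of 9 in Input and 4 of 9 in TRAP. Its FACSAria-Input library also held 643.3 CPM in the ependymal marker sum, beside 14.7 to 39.7 CPM in the other mice, and 49.8 CPM in the pericyte sum, beside 27.3 to 34.5. Its microglial sum of 49410 CPM was close to the 50060 to 50690 CPM of the other 3. The part of these other cells in the endothelial values was not tested. Without this mouse 9 of 10 genes were still called lower in FACSAria-Input than in Cell-Input.

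Other endothelial genes were compared between FACSAria-Input and Cell-Input, where 31.7% of all genes were lower and 22.4% higher, or 37% and 12.8% with DESeq2 size factors. By the first scaling 11 of 11 arterial genes, 12 of 16 Wnt genes, 15 of 22 transporters and 9 of 13 tight junction genes were lower. Of 18 endothelial transcription factors 13 were lower and 5 were higher, the latter a share near that of all genes. Fli1 stood between 26.9 and 45.9 CPM in Cell-Input and between 157.3 and 181.1 in FACSAria-Input (log2 2.15, SE 0.14, adjusted p = 3.67e-12), and Klf2 between 192.0 and 283.3 and between 577.6 and 1003 (log2 1.69, SE 0.20). F11r, which encodes the junctional adhesion molecule A, went from between 78.4 and 115.6 to between 546.6 and 749.1 CPM (log2 2.70, SE 0.13), while Ocln went from between 35.8 and 61.1 to between 3.41 and 12.3 (log2 -2.67, SE 0.30). Fli1, Klf2 and F11r are also known from myeloid cells, and microglial markers were higher in the same libraries.

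Near copies of the members were read separately, since reads shared between copies could have been split by the authors' counting. Abcb1b, a second P-glycoprotein gene, moved with the members from Tissue-Input (1.31 to 1.71 CPM) to Cell-Input (6.16 to 7.87 CPM, log2 2.15, SE 0.16) and against them on sorting. It stood between 31.6 and 57.9 CPM in the sorted Input libraries, with a log2 difference of 2.64 (SE 0.14) for FACSAria-Input over Cell-Input where Abcb1a had -3.92 (SE 0.43). In Cell-Input Abcb1a exceeded Abcb1b in every library, and in every sorted Input library Abcb1b exceeded Abcb1a. Ly6c2, the copy of Ly6c1 known from monocytes, stood between 7.94 and 15.6 CPM in Cell-Input, where Ly6c1 stood between 96.4 and 188.2.

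Likeness to the members' pattern was measured by Pearson's r between each gene's 12 group means (6 preparations, Input and TRAP) and the members' average, on the log2 scale. Genes with a mean of at least 5 CPM in Tissue-Input or Cell-Input were ranked, 12305 of them apart from the members. Eltd1 (r = 0.996), the sialomucin gene Emcn (0.993), Ptprb (0.993), Tie1 (0.992) and Clic5 (0.991) came first. Of the members, each of which is part of the average, Tek (0.997) and Flt1 (0.996) were closest to it, Cdh5 had 0.954 and Pecam1 0.318. The 12 means share mice between Input and TRAP, and r is a description.

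No member passed the test for a difference with the inhibitors. In the cell preparation comparison Cldn5 stood at 506.7, 323.9, 469.0 and 399.5 CPM in Cell no inhibitors-Input and at 490.2, 546.5, 383.3 and 357.1 in Cell with inhibitors-Input. Flt1 stood at 351.8, 305.0, 380.0 and 321.9 without and at 382.4, 452.1, 291.6 and 261.3 with the inhibitors. The ranges overlapped for all 10 genes in Input and in TRAP, where 2.24% and 12.5% of all genes did not overlap. Differences on the log2 scale ran from -0.08 (Sox17) to 0.25 (Itm2a) in Input, and the approximate 95% intervals of the 10 genes stayed between -0.69 and 0.56. In TRAP they ran from -0.02 (Ly6c1) to 0.32 (Tek), with intervals between -0.72 and 0.99. The same mice gave both suspensions, and the fit behind these intervals did not pair the libraries by mouse. By edgeR 0 of 10 were called in either fraction, against 0.311% and 0.638% of all genes, and 0 had an unadjusted p under 0.05. DESeq2 and limma also called 0. Of 18 endothelial transcription factors 1 was lower in Input with the inhibitors: Klf2 went from a mean of 382.7 CPM (SD 42.1, n = 4) to 142.7 (SD 14.8, n = 4), log2 -1.42 (SE 0.11, adjusted p = 9.78e-08). Of the other endothelial lists 0 genes were called in Input.

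**Figure D4:**
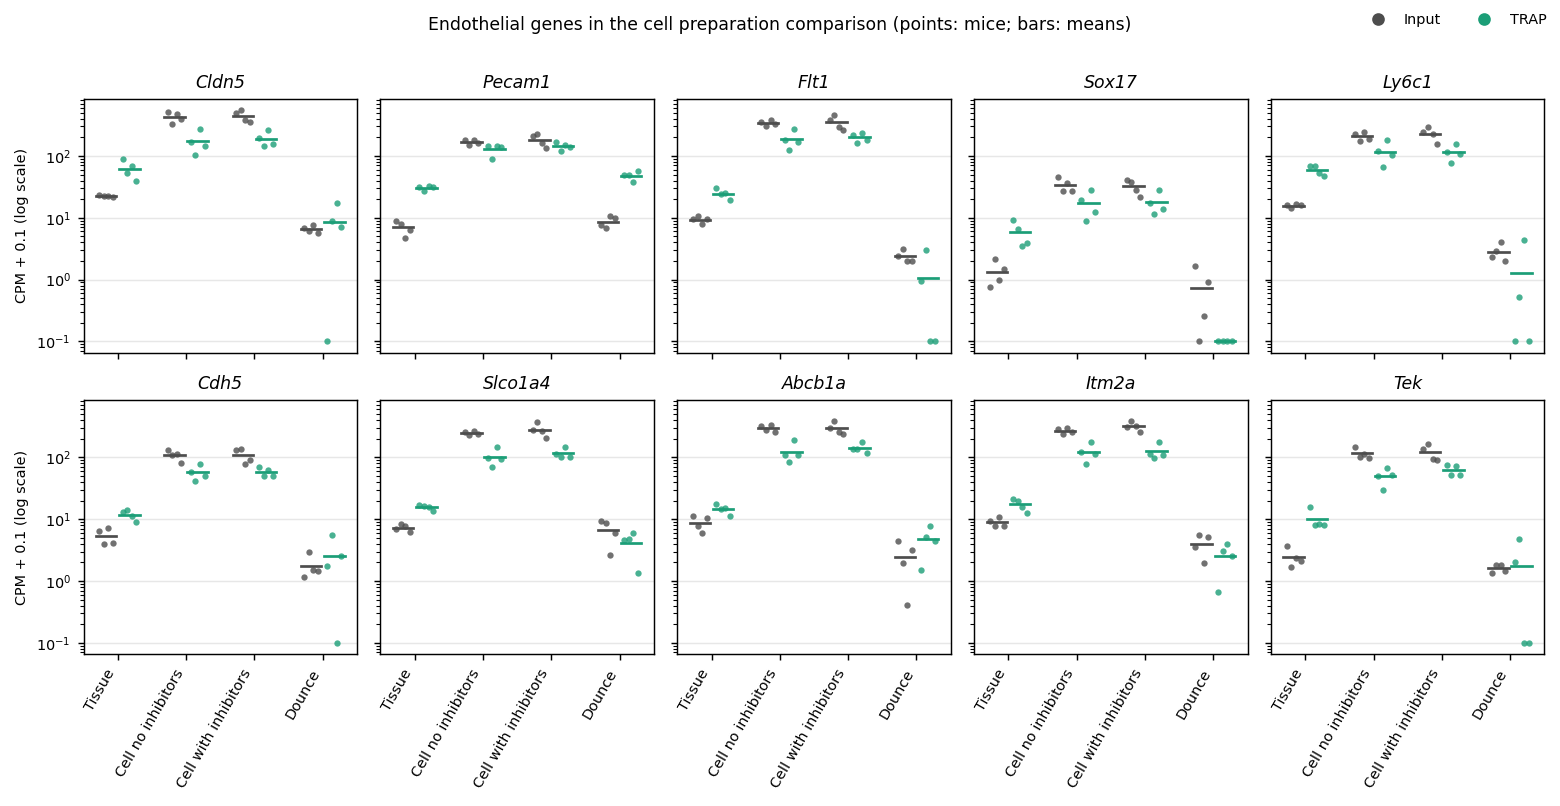
Level of each gene in the cell preparation comparison, as CPM plus 0.1 on a log axis, for the 4 preparations on the horizontal axis; grey points are Input libraries, green points TRAP libraries, one per mouse, and bars are group means. In Input both suspensions stand above Tissue and overlap each other. In TRAP, Sox17 and Ly6c1 without inhibitors overlap Tissue, and the Dounce means lie below Tissue for every gene but Pecam1 in both fractions.

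Both suspensions were above tissue, as in the sort comparison. All 10 genes were called higher than Tissue-Input without inhibitors (log2 3.73 for Ly6c1 to 5.59 for Tek, 28.3% of all genes higher) and with them (3.87 to 5.66, 28.2%). In TRAP 9 of 10 were called higher without inhibitors (21.5% of all genes) and 9 with them (20.6%), Ly6c1 staying under the 2-fold limit at 0.98 (SE 0.32) and 0.96. TRAP was below Input for 5 of 10 genes without inhibitors (Abcb1a, Cldn5, Itm2a, Slco1a4 and Tek, against 36.7% of all genes) and for 4 with them (the same without Tek, 35.8%). All 10 passed the test alone in both, and without mouse 156 the counts were 9 and 8.

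In the Dounce cell pellets 6 of the 10 genes made up a smaller share of the library than in intact tissue. The part of the gradient in this cannot be told apart from that of the dissociation. Ly6c1 stood at 15.7, 14.5, 16.7 and 15.8 CPM in Tissue-Input and at 2.23, 2.82, 3.91 and 1.93 in Dounce-Input (5.86-fold lower, log2 -2.55, SE 0.23, adjusted p = 5.10e-09). Flt1 stood at 9.36, 10.4, 7.75 and 9.46 CPM and at 2.31, 2.98, 1.87 and 1.93 (log2 -1.97, SE 0.22), and Cldn5 at 23.3, 22.3, 22.4 and 21.6 and at 6.69, 6.05, 7.50 and 5.65 (log2 -1.79, SE 0.17). Together with Abcb1a (-1.76), Cdh5 (-1.62) and Itm2a (-1.14), 6 of 10 genes were called lower and did not overlap, against 26.3% of all genes called lower and 37.8% lower without overlap. With DESeq2 size factors, which moved the median of all genes by 0.20, Itm2a was no longer called and 21.7% of all genes were. Slco1a4 differed by -0.05 (SE 0.26), Sox17 by -0.81 (SE 0.63), Tek by -0.67 (SE 0.36) and Pecam1 by 0.28 (SE 0.22). The values of the carrier Slco1a4 and the pump Abcb1a are set side by side, with no test of a difference between them and with the sign of Slco1a4 dependent on the scaling. Slco1a4 stood at 9.25, 8.62, 2.50 and 5.93 CPM after Dounce and at 6.83, 8.19, 7.55 and 5.99 in tissue, and Abcb1a went from 11.1, 7.52, 5.89 and 10.2 to 4.38, 1.82, 0.312 and 3.03. Marker sums of other cells also moved from Tissue-Input to Dounce-Input. Medians fell for ependymal (1276 to 120.1 CPM), vascular fibroblast (145.9 to 54.3) and neuronal markers (7637 to 2980). They also fell for astrocyte (4516 to 2468) and pericyte markers (173 to 129.5). Medians rose for microglial (479.8 to 2630), border macrophage (13.7 to 74.8), oligodendrocyte (4711 to 5650), T cell and blood markers. The part of these cells was not tested.

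**Figure D5:**
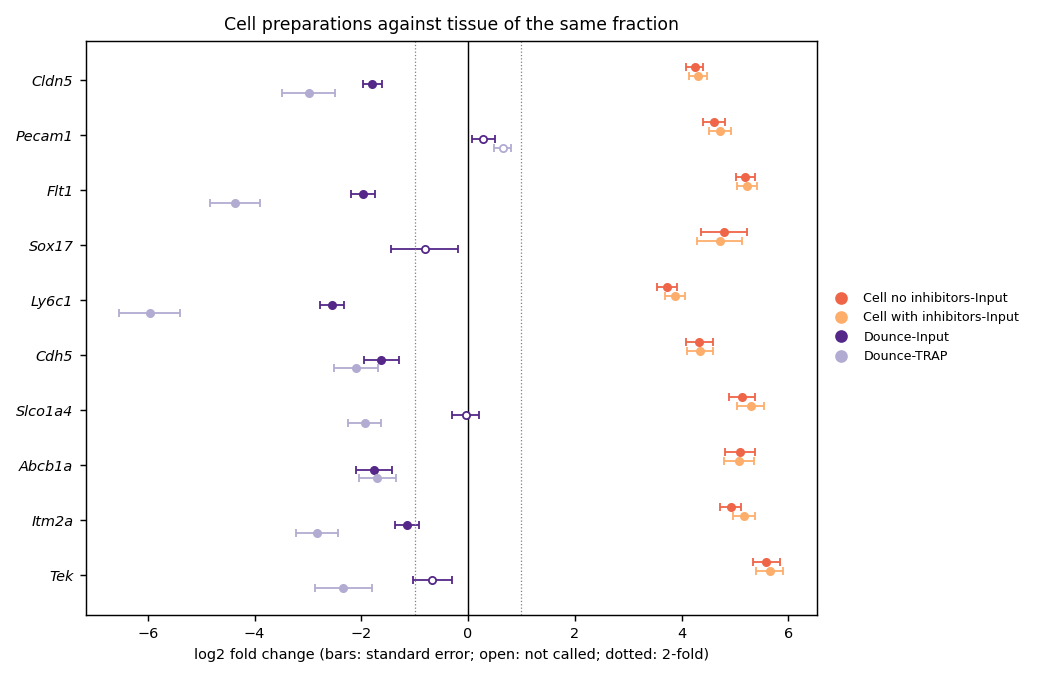
Log2 fold change of each gene against Tissue of the same fraction for both Cell-Input preparations, Dounce-Input and Dounce-TRAP; bars are standard errors, open points were not called, and the dotted lines mark 2-fold. The suspensions lie between 3.73 and 5.66, Dounce at or below 0 for every gene but Pecam1, and Sox17 in Dounce-TRAP is not drawn because it had no counts.

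After the pull-down the Dounce-TRAP mean lay below the Tissue-TRAP mean for every gene except Pecam1. Sox17 had 0 counts in the 4 Dounce-TRAP libraries, whose floor of 3 counts over the group is 0.212 CPM, at least 26.9-fold below Tissue-TRAP and at least 80.5-fold below Cell no inhibitors-TRAP. Flt1 stood at 0.836, 2.95, 0 and 0 CPM (20.6-fold below Tissue-TRAP, log2 -4.36, SE 0.47) and Ly6c1 at 0, 0.421, 4.27 and 0. Other members kept more: Cldn5 stood at 0, 8.63, 17.5 and 7.10 CPM (log2 -2.99, SE 0.50), Abcb1a at 1.39, 5.05, 7.77 and 4.32 (log2 -1.70, SE 0.35) and Slco1a4 at 4.46, 4.63, 5.83 and 1.24 (log2 -1.94, SE 0.31). Pecam1 made up between 48.7% and 81.7% of the summed 10 genes. Pecam1 stood at 48.5, 49.3, 37.3 and 56.8 CPM, above each of the Tissue-TRAP values of 31.0, 27.4, 32.8 and 31.8 (log2 0.65, SE 0.16, adjusted p = 0.00171, under the 2-fold limit). The other 9 genes were called lower than Tissue-TRAP, against 28.2% of all genes. Pecam1 was also the only gene called higher in TRAP than in Input after Dounce (log2 2.52, SE 0.20, adjusted p = 1.75e-12, against 20.8% of all genes higher), and Ly6c1 (-1.50, SE 0.70) and Sox17 (at least 3.01-fold, from a mean of 0.638 CPM in Input to 0 counts) were called lower (26.7% lower). These 3 calls became 2 without mouse 179 or 182, 5 without mouse 181 and 1 with the Dounce libraries fitted alone.

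Dounce was also set against the enzymatic suspension. Against Cell no inhibitors-Input, Dounce-Input was lower for 10 of 10 genes, from -4.33 (SE 0.20) for Pecam1 to -7.17 (SE 0.21) for Flt1, against 35.9% of all genes lower and a median of -0.41 over all genes. In TRAP 10 of 10 were lower too, against 8.15% of all genes, with Pecam1 at -1.43 (SE 0.16) and the median of the 10 at -4.72. The TRAP-over-Input difference was higher after Dounce than in Cell no inhibitors for 5 genes (Pecam1 2.89, Abcb1a 2.09, Tek 1.61, Cldn5 1.59 and Cdh5 1.59), against 32.2% of all genes, or 21.0% with DESeq2 size factors, and for 3 without Dounce mouse 180. Limma on the authors' log2 values gave Tek the opposite sign.

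In Dounce-Input against Cell no inhibitors-Input, 35.9% of all genes were lower and 23.3% higher. Other endothelial genes were lower in most lists. They included 17 of 18 transcription factors, such as Sox18 (log2 -6.35, SE 0.45), 17 of 18 adhesion genes, 19 of 22 transporters, such as the thyroid hormone carrier Slco1c1 (-5.03, SE 0.14), and 13 of 16 Wnt genes, such as Apcdd1 (-5.27, SE 0.21). Among the VEGF, angiopoietin and Tie genes 10 of 14 were lower, with Tie1 at -6.63 (SE 0.34) and Flt4 at -6.55 (SE 0.45). Tight junction genes were lower for 9 of 13, arterial genes for 9 of 11 and capillary genes for 5 of 7. Venous genes were lower for 7 of 8 and higher for 1. Plvap again went the other way, from 2.90 to 5.07 CPM in the suspension to 14.5 to 24.8 after Dounce (log2 2.17, SE 0.23, adjusted p = 4.33e-08), a level that overlapped tissue (14.09 to 16 CPM).

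Markers of other cells moved in the same libraries. The pericyte sum had a median of 571.5 CPM in Cell no inhibitors-Input and 129.5 in Dounce-Input, and pericyte markers were lower for 12 of 13. Median sums also fell for ependymal (8720 to 120.1 CPM), vascular fibroblast (524.7 to 54.3) and border macrophage markers (187.7 to 74.8). So did those of astrocyte (9451 to 2468), oligodendrocyte (18410 to 5650) and microglial markers (10910 to 2630). Those of neuronal (598.3 to 2980) and T cell markers (16.6 to 39.5) rose. The part of these cells in the endothelial values was not tested. The sum of platelet and erythroid markers had a median of 10050 CPM in Dounce-Input, 7782 in Cell no inhibitors-Input and 184.1 in Tissue-Input, and that of monocyte and neutrophil markers 244.1, 34.4 and 1.7. Most of the first sum was haemoglobin, with Hba-a1 at a mean of 7009 CPM in Dounce-Input. The platelet genes of that list were lower in Dounce-Input than in Cell no inhibitors-Input (Gp9 log2 -2.99, SE 0.42, Ppbp -2.63, SE 0.56 and Itga2b -1.36, SE 0.37), and against Tissue-Input Gp9 (1.56, SE 0.59) and Ppbp (2.61, SE 0.86) were higher. Ppbp had 0 counts in the 4 Dounce-TRAP libraries. Platelets and myeloid cells carry Pecam1, and the part of blood cells in its Dounce values was not tested.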

How the data were processed

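RNA-seq was read from the tables the authors deposited. The authors prepared stranded poly(A) libraries, aligned reads to mm10 and removed duplicates in Strand NGS, kept genes for which all samples of some group exceeded 5 reads, and deposited estimated counts per gene, not all of which were whole numbers. They also deposited log2 values, normalized by the DESeq2 procedure and centred on the median of Tissue-Input, which were used in 1 alternative here.

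The 10 genes and the gene lists were chosen with earlier results of these data known. The other genes that could be named were, for each list, the 3 called genes with the largest change in Cell-Input against Tissue-Input or in Dounce-Input against Cell no inhibitors-Input, the 10 genes most like the members over group means, and near copies of members. Which of these were shown, and their values in further comparisons, was chosen after the values were seen. Counts were rounded, scaled by TMM factors computed once per table, and tested with edgeR 4.0.16 in R 4.3.3 by quasi-likelihood with Benjamini-Hochberg adjustment over all genes passing the same count filter in each fit. Input comparisons used all Input groups of a table, and TRAP comparisons all TRAP groups. CPM used the same TMM-scaled library sizes. Simulated counts were used to check the scripts. Alternatives used DESeq2 1.42.0 and limma 3.58.1, among others. Reads carry no molecular identifiers, so the floor of 3 counts and the counting interval (95%, exact) cover counting error only. Promoters came from RefSeq, and 7 of the 10 genes had an entry.

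Libraries with the same number came from the same mouse. Deviations from group means correlated between such libraries by a mean r of -0.0063 (Tissue and Cell, Input) to 0.272 (with and without inhibitors, TRAP).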

Additional observations from a re-analysis of the deposited data

Results flagged for a closer look

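Of 179 combinations of gene and group with 4 or 5 mice, 5 held a library far from the others by Dixon's criterion, where chance alone gives about 1 in 20 groups. Pecam1 was lowest in mouse 946 of Cell-TRAP in the sort comparison (138 CPM, beside 156.3 to 158.4 in the other mice) and in mouse 1362 of Cell no inhibitors-TRAP (90.4 CPM, beside 140.4 to 145.3). Slco1a4 was highest in mouse 991 of FACSAria-TRAP (7.87 CPM, beside 0.673 to 1.18), the mouse described above for the whole residue of that sort. Ly6c1 was highest in mouse 181 of Dounce-TRAP (4.27 CPM, beside 0 to 0.421), and Tek in mouse 946 of Tissue-TRAP in the cell preparation comparison (15.4 CPM, beside 7.99 to 8.34).

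The difference between TRAP and Input itself differed between preparations. Tested as an interaction, it was lower in Cell than in Tissue for every member, with log2 values of -2.17 (Cldn5), -2.20 (Pecam1), -2.0 (Flt1), -2.61 (Sox17), -2.29 (Ly6c1), -1.60 (Cdh5), -2.15 (Slco1a4), -1.83 (Abcb1a), -1.84 (Itm2a) and -2.18 (Tek). It was higher in Dounce than in Cell no inhibitors for Cldn5 (1.59), Pecam1 (2.89), Cdh5 (1.59), Abcb1a (2.09) and Tek (1.61), and the other 5 members did not pass that test. Leaving out single mice lowered the count of these calls to as few as 3, and limma on the authors' log2 values gave Tek the opposite sign.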

How the results depend on the processing

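The 10 higher calls in Cell-Input and in Cell-TRAP against Tissue, the 10 or 9 lower calls in the sorted Input groups, the 10 lower calls of Dounce against Cell no inhibitors and the 0 calls for the inhibitors were within 1.5 times under every alternative run, which were the test alone, DESeq2 size factors, no filter on low counts, the DESeq2 Wald test, limma on the authors' log2 values, TMM within each fit (chosen after seeing the data), only the compared groups and leaving out each mouse. The replicate block was run only where groups share mice, which leaves out the sorted groups against Cell and Dounce against the other preparations, and it moved none of the other counts named here.

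Counts of called members moved elsewhere, and the cause was not tested. With only the groups compared, they were 0 in place of 7 (autoMACS to Tyto against autoMACS, Input), 5 in place of 8 and 3 in place of 6 (difference among the sorts, Input and TRAP) and 1 in place of 3 (TRAP against Input in Dounce). Limma gave 1 in place of 2 (autoMACS to Tyto against autoMACS, TRAP), 1 in place of 6 (among the sorts, TRAP), 5 in place of 8 (TRAP against Input in Tissue, both tables), 4 in place of 1 (in Cell), 3 in place of 5 (in Cell no inhibitors), 2 in place of 4 (with inhibitors) and 6 in place of 3 (in Dounce). For TRAP against Input in Cell, the test alone gave 4, DESeq2 size factors 6 and the DESeq2 Wald test 4, and the test alone gave 10 in both suspensions of the other table. The replicate block gave 6 in place of 2 for autoMACS to Tyto against autoMACS in TRAP, and the only other call it changed was Sox17 in Cell no inhibitors (-1.08). The Wald test was not run for the differences among the sorts.

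The following log2 values turned sign. Pecam1 in Cell (TRAP against Input) became -0.34 with DESeq2 size factors, -0.34 in the Wald test and -0.40 in limma, from 0.07. Slco1a4 in Dounce-Input against Tissue-Input became 0.14, 0.12 and, with TMM within the fit, 0.16, from -0.05. For the inhibitors, limma gave -0.00 (Flt1) and -0.02 (Cdh5) in Input and 0.02 (Ly6c1) in TRAP, and the replicate block -0.01 (Cdh5) and 0.02 (Ly6c1). For TRAP against Input in Dounce limma gave -1.17 (Cldn5), -0.51 (Cdh5) and -1.59 (Tek), and for its difference from Cell no inhibitors -0.03 (Itm2a) and -0.46 (Tek).

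Leaving out single mice moved the counts to 2 to 8 (autoMACS to Tyto against autoMACS, Input), 0 to 4 (TRAP), 4 to 8 (among the sorts, Input), 2 to 7 (TRAP), 0 to 3 (TRAP against Input in Cell), 5 to 9 (Cell no inhibitors), 3 to 8 (with inhibitors), 2 to 5 (Dounce) and 3 to 5 (Dounce minus Cell no inhibitors). Values whose sign turned ran from -0.19 to 0.01 (Pecam1) in the first of these, from -0.04 to 0.14 (Pecam1) and -0.08 to 0.47 (Cdh5) in the second, and from -0.02 to 0.16 for Pecam1 in Cell and -0.25 to 0.18 for Slco1a4 in Dounce-Input against Tissue-Input. For the inhibitors in Input they ran from -0.05 to 0.16 (Cldn5), -0.01 to 0.23 (Pecam1), -0.12 to 0.14 (Flt1), -0.22 to 0.09 (Sox17), -0.00 to 0.29 (Ly6c1), -0.11 to 0.14 (Cdh5), -0.01 to 0.29 (Slco1a4), -0.17 to 0.09 (Abcb1a) and -0.12 to 0.21 (Tek), and in TRAP from -0.05 to 0.46 (Cldn5), -0.04 to 0.36 (Flt1), -0.27 to 0.41 (Sox17), -0.22 to 0.28 (Ly6c1), -0.11 to 0.22 (Cdh5) and -0.19 to 0.27 (Itm2a). In Dounce they ran from -0.18 to 0.74 (Cldn5) and -0.92 to 0.74 (Tek), and for Dounce minus Cell no inhibitors from -1.78 to 0.19 (Flt1).

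Over all genes, the calls of autoMACS to Tyto against autoMACS in Input, 403, ranged from 64 to 906 without single mice and were 0, 143 and 740 with only the groups compared, the replicate block and the Wald test. Fitting only the groups compared gave 516 in place of 1234 and 394 in place of 622 among the sorts (Input and TRAP), 225 in place of 355 (autoMACS to Tyto against autoMACS, TRAP) and 1477 in place of 2994 (TRAP against Input in the sorts). The replicate block gave 150 in place of 94 for the inhibitors in TRAP, and leaving out autoMACS to Tyto mouse 73 gave 180 in place of 355 in TRAP. Requiring the test alone gave, in the sort table, 11868 in place of 7188 (Cell-Input vs Tissue-Input), 13168 in place of 8731 (autoMACS-Input vs Cell-Input), 12803 in place of 8452 (autoMACS to Tyto-Input vs Cell-Input), 13307 in place of 8719 (Tyto-Input vs Cell-Input), 12957 in place of 8523 (FACSAria-Input vs Cell-Input), 1084 in place of 403 (autoMACS to Tyto-Input vs autoMACS-Input), 3080 in place of 1234 (F test across the 4 sorts, Input), 12523 in place of 8121 (Cell-TRAP vs Tissue-TRAP), 8261 in place of 3521 (autoMACS-TRAP vs Cell-TRAP), 7775 in place of 3362 (autoMACS to Tyto-TRAP vs Cell-TRAP), 8695 in place of 3571 (Tyto-TRAP vs Cell-TRAP), 8469 in place of 3498 (FACSAria-TRAP vs Cell-TRAP), 3317 in place of 355 (autoMACS to Tyto-TRAP vs autoMACS-TRAP), 4218 in place of 622 (F test across the 4 sorts, TRAP), 5153 in place of 1756 (TRAP vs Input in Tissue), 12590 in place of 7535 (TRAP vs Input in Cell), 10208 in place of 2994 (TRAP vs Input in 4 sorts) and 10119 in place of 5579 (interaction: TRAP vs Input in Cell minus in Tissue), and among the cell preparations 12067 in place of 7138 (Cell no inhibitors-Input vs Tissue-Input), 12180 in place of 7256 (Cell with inhibitors-Input vs Tissue-Input), 12539 in place of 8089 (Dounce-Input vs Tissue-Input), 303 in place of 94 (Cell with inhibitors-TRAP vs Cell no inhibitors-TRAP), 8806 in place of 4235 (Dounce-TRAP vs Cell no inhibitors-TRAP), 4360 in place of 1672 (TRAP vs Input in Tissue), 12046 in place of 7519 (TRAP vs Input in Cell no inhibitors), 11563 in place of 7240 (TRAP vs Input in Cell with inhibitors), 11646 in place of 7545 (TRAP vs Input in Dounce) and 9417 in place of 6114 (interaction: TRAP vs Input in Dounce minus in Cell no inhibitors). Dounce-TRAP, the shallowest group, limits what its zeros show to the floor given above.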

Other observations

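In Dounce-TRAP against Tissue-TRAP 28.2% of all genes tested were lower and 22.0% higher, and no difference between lists was tested. Arterial genes were lower for 10 of 11 and higher for 0, endothelial transcription factors lower for 11 of 18 and higher for 4, and genes of Wnt signalling lower for 8 of 16 and higher for 3. Tight junction genes were lower for 5 and higher for 5 of 13, adhesion genes lower for 8 and higher for 6 of 18, and capillary genes lower for 2 of 7, close to the share of all genes. Ly6c2, the copy of Ly6c1 known from monocytes, stood between 0 and 0.337 CPM in Tissue-Input and between 2.48 and 8.44 CPM in Dounce-Input (log2 5.32, SE 0.67, adjusted p = 6.91e-07 by edgeR), while Ly6c1 was lower in the same comparison, and it was 0 in 2 of the 4 Dounce-TRAP libraries. Klf2, lower in Input with the inhibitors, was also lower in TRAP (log2 -3.64, SE 0.20).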
